A study of Mus musculus with 6 samples.

Results

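The genes described here are 47 DNA repair and damage checkpoint genes, chosen by name from 7 pathways and read from a table of 36065 genes. They comprise 14 genes of base excision and single-strand break repair, 3 of mismatch repair, 12 of homologous recombination, 5 of end joining, 7 of the damage checkpoint, 3 of the Fanconi anaemia pathway and 3 of nucleotide excision. All 47 matched 1 record each by symbol. The RNA came from 1-cell mouse embryos of wild-type genotype, cultured in vitro, and every group shared that genotype and that culture. The DMSO group received the solvent alone, the CBR group CBR-5884, described by the submitters as blocking serine metabolism, and the CBR+SAM group CBR-5884 together with S-adenosylmethionine, the methyl donor of methyltransferases. Each group had 2 biological replicates, which gives 6 libraries. The dose, the hours in culture, the mouse strain and the number of embryos in a library are not given in the sources used here.

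A fertilized egg holds 2 pronuclei, and it repairs damaged DNA largely with mRNA and protein stored by the oocyte, since transcription from its own genome has only begun. Base excision removes single damaged bases, mismatch repair corrects replication errors, nucleotide excision cuts out bulky lesions, and the Fanconi anaemia pathway unhooks crosslinks between strands. Double-strand breaks are rejoined by end joining or copied from an intact template by homologous recombination, and the checkpoint kinases delay division until the damage is gone. The series' title names DNA integrity in the male pronucleus, so the comparisons ask whether the mRNA of the repair and checkpoint machinery differed when serine metabolism was inhibited, and whether S-adenosylmethionine changed it.

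Values are given on the deposited scale, an abundance per transcript length that resembles TPM, the share of all transcripts scaled to a common total, so that levels can be set side by side between genes. No read count comes with the values, so the depth behind each is unknown and no counting error can be given. Changes are differences of log2(value + 1) between group means, fitted with limma across the 12249 genes that reached 1 in 2 or more libraries. Changes of genes near that limit come out too small on this scale. A gene was called at a Benjamini-Hochberg adjusted p under 0.05 over all genes tested. The p-values measure only the spread between these libraries. Of the 47 genes, 45 were tested. Neil1 (0.159 to 0.522), a glycosylase, and Prkdc (0.204 to 0.575), the catalytic subunit of the DNA-dependent protein kinase of end joining, were too low.

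The 6 libraries were those of early embryos. All 12 oocyte and zygote markers passed the filter, led by Omt2b (13099 to 19382) and Dppa3 (13565 to 17885). Markers of cumulus and granulosa cells summed to 508.5 to 616.1 in 5 libraries and to 236.9 in CBR+SAM replicate 2, nearly all of it Serpine2, and to 8.59 to 14.1 without that gene. The filter was passed by 2 of 11 cumulus and granulosa markers, 2 of 7 sperm markers and 0 of 5 blood markers. Among those that did not pass, Inha of granulosa cells, Tnp1 of sperm and Cd52 of blood were listed at 0 in every library. The summed values of sperm markers ran from 14.4 to 17.2 and those of blood from 0.0 to 0.701. Each value is a bulk measurement, so fewer cells with a transcript and less of it per cell cannot be told apart.

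Most of the genes were present at low to moderate levels, and a single checkpoint kinase stood far above the rest. Chek1, which encodes the kinase CHK1 that halts the cycle at damaged or stalled replication forks, had a mean of 1228 over the 6 libraries and lay above 99.5% of protein-coding genes. The next were Neil3, a glycosylase for oxidized bases and crosslinks, with a mean of 402.5, and Polb, the gap-filling polymerase of base excision, with 143. Another 5 genes had means between 50 and 100, namely Msh6, Brca2, Parp1, Trp53bp1 and Chek2. Of the other genes, 20 lay between 10 and 50, 17 between 1 and 10, and 2 below 1. The median of the genes' means was 16.1, against 9.31 over all genes tested. Chek1 alone made up 40.5% to 45.8% of the summed values of the 47 genes, and together with Neil3 it made up 54.9% to 61.2%. The sum over all 47 was 2691 ± 39.1 (SD, n = 2) in DMSO, 2875 ± 135 (SD, n = 2) in CBR and 2704 ± 154 (SD, n = 2) in CBR+SAM. Both CBR libraries (2779 and 2971) were above both DMSO libraries (2663 and 2719), and CBR+SAM overlapped both groups (2813 and 2595). As a share of each library's summed values, DMSO (0.27% and 0.284%) and CBR (0.28% and 0.296%) overlapped as well. Without Chek1 and Neil3 the sums ran from 1083 to 1171.

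**Figure D1:**
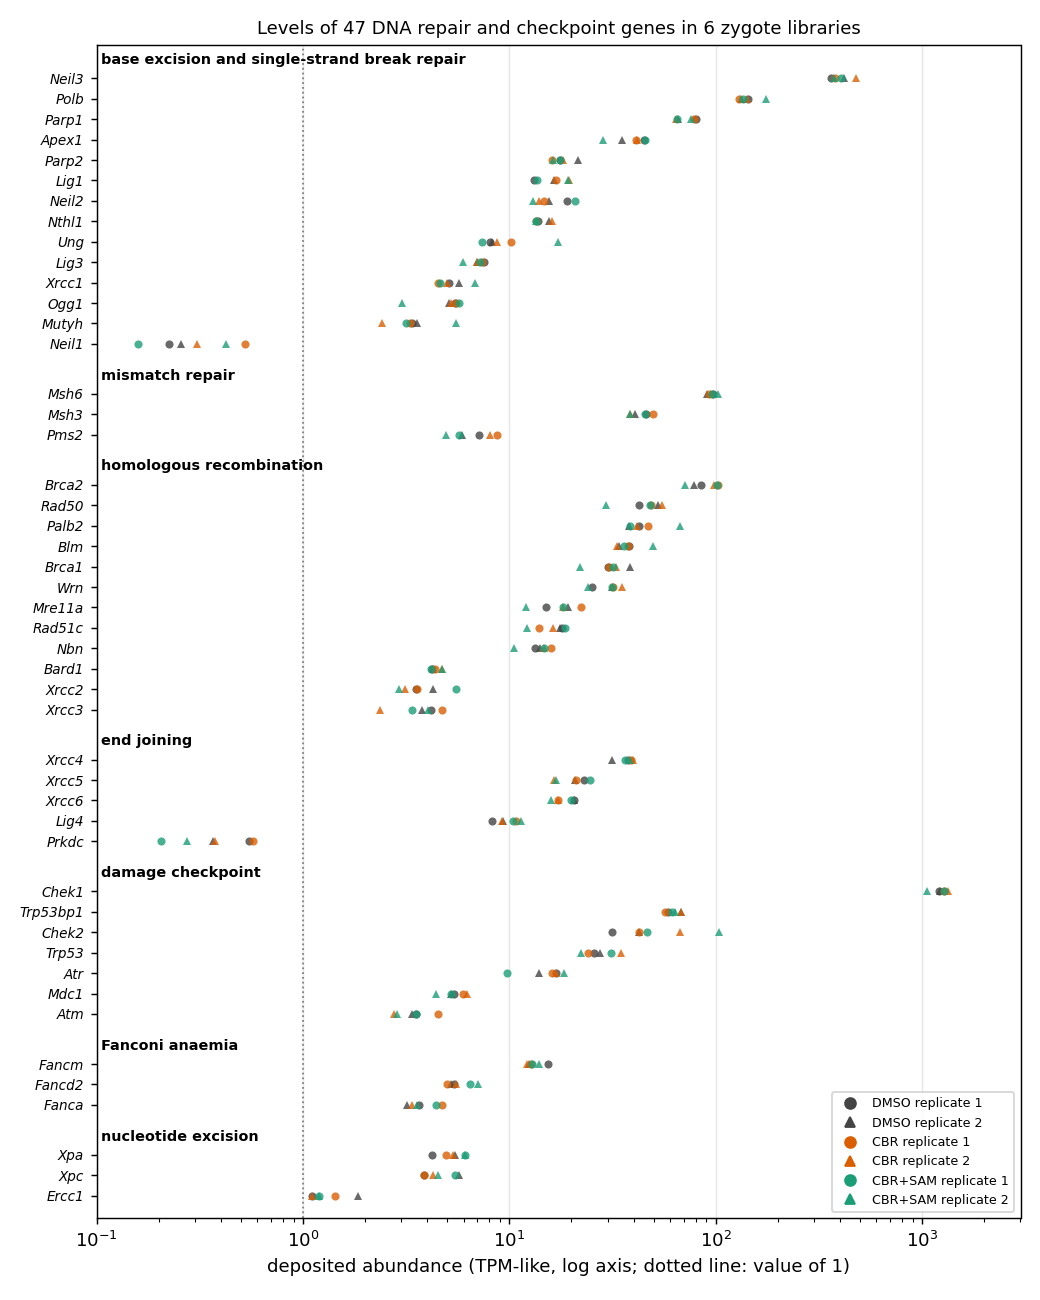
Deposited abundance of the 47 genes in the 6 libraries on a log axis, grouped by pathway and sorted by mean, with color for the group and shape for the replicate. Chek1 (1051 to 1342) and Neil3 (362 to 477) stand above their pathways in every library, and Neil1 and Prkdc lie below the dotted line at a value of 1.

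No gene of the 45 tested was called in any of the 3 comparisons (limma, Benjamini-Hochberg). In CBR against DMSO the share of all genes tested that was called was 0.0% (0 of 12249), and it was 0.00816% (1 gene each) when CBR+SAM was set against CBR or against DMSO. That gene was Gm16550, a pseudogene outside the pathways, named here after its values were seen. At an unadjusted p under 0.05 the numbers were 0, 1 and 0 of the 45 genes, in that order of comparisons, against 2.12%, 3.09% and 2.14% of all genes tested. The 1 gene was Pms2. The fitted change was above 0 for 26 of 45 genes in CBR against DMSO, where the same held for 48.3% of all genes. It was above 0 for 19 of 45 in CBR+SAM against CBR, against 52.4% of all genes, and for 18 of 45 in CBR+SAM against DMSO, against 49.0%. The median changes of the 45 genes were 0.02, -0.02 and -0.04 log2, beside -0.0074, 0.0142 and -0.0048 over all genes tested. When each library was rescaled to the same sum, the first was -0.0151, beside -0.0443 over all genes tested.

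How large a change the data leave room for differed between genes. A change of 1 log2 on this scale is a 2-fold change of value + 1, which is more than 2-fold in abundance, most so for low values. The 95% interval of the change lay inside 1 log2 in either direction for 44 of 45 genes in CBR against DMSO. It did so for 40 in CBR+SAM against CBR and for 43 in CBR+SAM against DMSO. The same held for 87.2%, 84.6% and 86.6% of all genes tested. Chek2 was the exception in the first comparison. Chek2, Mutyh, Pms2, Rad50 and Ung were the exceptions in the second, and Chek2 and Ung in the third. Intervals inside 0.5 log2 were fewer, with 10, 8 and 10 of 45 genes, against 18.7%, 16.5% and 18.5% of all genes. For the other genes the interval reached beyond 0.5 log2. The fit shares the spread of each gene over all 3 groups, although replicates of these genes differed more in CBR+SAM. Their median absolute difference was 0.306 log2 there, 0.158 in DMSO and 0.149 in CBR. The intervals may thus be too narrow for the comparisons with CBR+SAM and too wide for CBR against DMSO. A fitted change beyond 0.5 log2 was found for 1 of 45 genes in each comparison, Chek2, Pms2 and Chek2 in turn, against 4.25%, 6.03% and 4.5% of all genes.

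**Figure D2:**
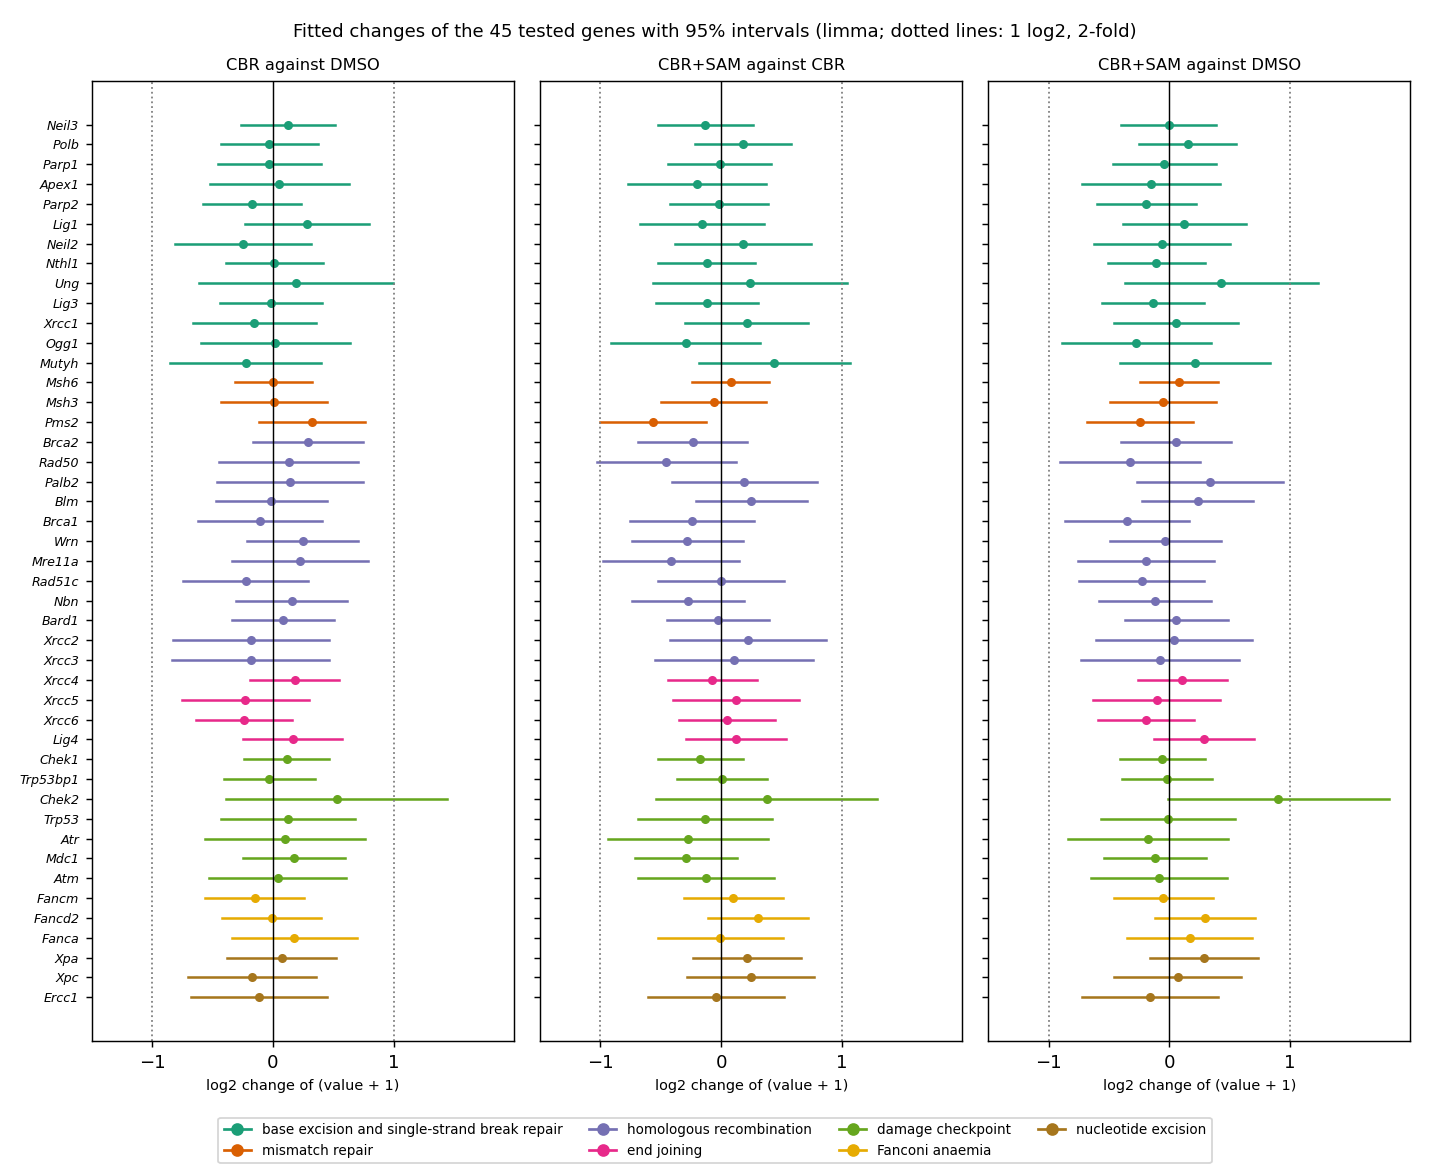
Fitted log2 change of (value + 1) of the 45 tested genes in the 3 comparisons, with bars for the 95% interval from limma, color for the pathway and dotted lines at 1 log2 in either direction. All intervals include 0 except that of Pms2 in CBR+SAM against CBR (-1.002 to -0.13), and Chek2 has the widest.

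The checkpoint genes held both the highest level and the widest intervals among the 7 pathways. Chek1 stood at 1202 and 1216 in DMSO, 1273 and 1342 in CBR, and 1283 and 1051 in CBR+SAM. Both CBR libraries were above both DMSO libraries, and CBR+SAM had both a high library and the lowest of all 6. The change of Chek1 in CBR against DMSO was 0.11 log2 (SE 0.15, 95% interval -0.24 to 0.47), and the interval in CBR+SAM against CBR ran from -0.52 to 0.18. Chek1 made up 83.0% to 89.5% of the summed values of the 7 checkpoint genes.

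Chek2 encodes CHK2, the kinase that acts after double-strand breaks and removes damaged oocytes. It stood at 31.6 and 42.5 in DMSO, 42.3 and 67.1 in CBR, and 46.5 and 104 in CBR+SAM. The CBR+SAM libraries were both above the DMSO libraries, whereas DMSO and CBR overlapped narrowly and replicate 2 was the higher in each group. The change in CBR+SAM against DMSO was 0.91 log2 (SE 0.39, 95% interval -0.01 to 1.82, unadjusted p = 0.0518), with a limma adjusted p of 0.9997. CBR+SAM replicate 2 set much of its size. Without that library the change was 0.34 log2, and without CBR+SAM replicate 1 it was 1.47 log2 (limma adjusted p = 0.171). In CBR against DMSO the change was 0.53 log2 (95% interval -0.39 to 1.44), and it was 0.20 without CBR replicate 2, 0.32 without DMSO replicate 1 and 0.85 without CBR replicate 1. The level of Chek2 was 2.63% of that of Chek1 in DMSO replicate 1 and 9.86% in CBR+SAM replicate 2.

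The apical kinases of the checkpoint were far less abundant than Chek1. Atr, the kinase that responds to single-stranded DNA and activates CHK1, stood at 16.9 and 14.0 in DMSO, 16.2 and 16.9 in CBR, and 9.76 and 18.5 in CBR+SAM. The CBR+SAM libraries held both the lowest and the highest value. Atm, the kinase of double-strand breaks, stood at 3.52 and 3.36 in DMSO, 4.51 and 2.77 in CBR, and 3.54 and 2.86 in CBR+SAM, and all groups overlapped. The ratio of Chek1 to Atr ran from 56.9 to 131 over the 6 libraries, and that of Atr to Atm from 2.76 to 6.45.

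Trp53 encodes p53, the transcription factor at the end of the checkpoint. It stood at 25.6 and 27.4 in DMSO, 24.1 and 34.8 in CBR, and 31.2 and 22.1 in CBR+SAM, so the groups overlapped throughout. Trp53bp1, which encodes the chromatin reader 53BP1 that favours end joining, stood at 59.0 and 67.7 in DMSO, 56.8 and 67.5 in CBR, and 61.4 and 63.3 in CBR+SAM. The group means of Trp53bp1 were 63.4, 62.2 and 62.4, and its interval in CBR against DMSO was -0.40 to 0.35 log2. Mdc1, the scaffold that reads phosphorylated histone H2AX, ranged from 4.43 to 6.24 and was higher in both CBR libraries than in the other 4.

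Among the genes of base excision, the glycosylases that recognise damaged bases were dominated by Neil3. It stood at 362 and 419 in DMSO, 379 and 477 in CBR, and 405 and 373 in CBR+SAM, with overlap between all groups. Its change was 0.13 log2 in CBR against DMSO (95% interval -0.27 to 0.52) and -0.0045 log2 in CBR+SAM against DMSO (95% interval -0.40 to 0.39). Neil3 made up 87.6% to 91.1% of the summed values of the 7 glycosylases. It was 19.0 to 34.1 times as high as Neil2, a glycosylase that acts in bubbles and single strands.

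Ung, the glycosylase that removes uracil from DNA, stood at 8.09 and 8.21 in DMSO, 10.2 and 8.74 in CBR, and 7.38 and 17.2 in CBR+SAM. The DMSO values were close together and both CBR values above them, while CBR+SAM held the lowest and the highest library. The change in CBR+SAM against DMSO was 0.43 log2 (SE 0.34, 95% interval -0.37 to 1.23). Mutyh, which removes adenine opposite 8-oxoguanine, stood at 3.39 and 3.59 in DMSO, 3.30 and 2.42 in CBR, and 3.16 and 5.52 in CBR+SAM. Both CBR values of Mutyh lay below the DMSO values, and the change in CBR+SAM against CBR was 0.44 log2 (unadjusted p = 0.138), with groups that overlapped. It was 0.12 without CBR+SAM replicate 2, 0.77 without CBR+SAM replicate 1 and 0.28 without CBR replicate 2. The other tested glycosylases were Neil2 (13.0 to 20.8), Nthl1 (13.5 to 16.1), which acts on oxidized pyrimidines, and Ogg1 (3.02 to 5.70), which acts on 8-oxoguanine.

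Downstream of the glycosylases, the strand is cut, sensed, filled and sealed. Apex1, the endonuclease that cuts at abasic sites, ranged from 28.3 to 45.6. Parp1, the sensor of strand breaks, stood at 80.2 and 65.5 in DMSO, 78.3 and 64.3 in CBR, and 65.2 and 76.2 in CBR+SAM. The replicates of Parp1 differed more than the groups, whose means were 72.8, 71.3 and 70.7. Its relative Parp2 ranged from 16.2 to 21.5. Polb stood at 144 and 133 in DMSO, 129 and 142 in CBR, and 135 and 175 in CBR+SAM, where replicate 2 was the highest of all. Xrcc1, the scaffold that gathers the ligase and polymerase, stood at 5.08 and 5.67 in DMSO, 4.49 and 4.97 in CBR, and 4.63 and 6.80 in CBR+SAM. The CBR values of Xrcc1 lay just below those of DMSO, with a change of -0.15 log2 (95% interval -0.67 to 0.36). The ligases were lower than the polymerase, with Lig1 at 13.2 to 19.5 and Lig3, the partner of XRCC1, at 5.94 to 7.58. The ratio of Parp1 to Xrcc1 ran from 11.2 to 17.4 and that of Polb to Lig3 from 17.5 to 29.5.

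Mismatch repair held the only gene with an unadjusted p under 0.05 in the main fit, with all 6 libraries and no replicate block. Pms2, a subunit of the endonuclease that nicks the faulty strand, stood at 7.12 and 5.89 in DMSO, 8.67 and 8.06 in CBR, and 5.72 and 4.95 in CBR+SAM. The CBR libraries were the highest and the CBR+SAM libraries the lowest, with no overlap between any pair of groups. The change was -0.57 log2 in CBR+SAM against CBR (SE 0.19, 95% interval -1.002 to -0.13, unadjusted p = 0.0183), and the limma adjusted p was 0.988. In CBR against DMSO it was 0.32 log2 (95% interval -0.11 to 0.76), and 0.20 without DMSO replicate 2. The unadjusted p for CBR+SAM against CBR was 0.0865 without the first CBR library, 0.0517 without the second and 0.0585 without CBR+SAM replicate 2. Pms2 shares 394 exon bases with Gm42421, listed at a mean of 0.0, and 85 with Rsph10b, at 0.984, against a mean of 6.74 for Pms2.

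The mismatch sensors were steadier. Msh6, which recognises single mismatches, stood at 97.1 and 91.1 in DMSO, 93.2 and 95.4 in CBR, and 96.5 and 103 in CBR+SAM. Its interval in CBR against DMSO, -0.32 to 0.33 log2, was among the narrowest. Msh3, which recognises longer loops, stood at 46.1 and 40.8 in DMSO, 49.7 and 38.3 in CBR, and 45.4 and 38.5 in CBR+SAM. Replicate 2 of Msh3 was the lower in each group, and the groups overlapped. Msh6 was 1.88 to 2.68 times as high as Msh3.

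Among the listed genes of homologous recombination, the highest level was that of Brca2, which encodes the mediator that loads the recombinase onto single strands. Of the further genes of that pathway, Helq had a higher mean, 210.4. Brca2 stood at 84.7 and 78.8 in DMSO, 102 and 98.1 in CBR, and 102 and 70.9 in CBR+SAM. Both CBR libraries were above both DMSO libraries, while CBR+SAM spanned nearly the whole range. The change in CBR against DMSO was 0.29 log2 (SE 0.19, 95% interval -0.16 to 0.75, unadjusted p = 0.173, limma adjusted p = 0.9999). Palb2, the partner of BRCA2 that joins it to BRCA1, stood at 42.3 and 37.8 in DMSO, 47.1 and 41.7 in CBR, and 38.5 and 67.1 in CBR+SAM. Only the last library stood apart, and the groups overlapped.

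Brca1, the ubiquitin ligase that promotes end resection, stood at 30.0 and 38.6 in DMSO, 30.4 and 32.8 in CBR, and 31.8 and 22.1 in CBR+SAM. CBR+SAM replicate 2 was the lowest, and the other replicate lay within the DMSO range. The change in CBR+SAM against DMSO was -0.35 log2 (95% interval -0.86 to 0.17), and with 1 library left out it ran from -0.60 without CBR+SAM replicate 1 to -0.09 without CBR+SAM replicate 2. It was -0.52 without DMSO replicate 1 and -0.17 without DMSO replicate 2. Bard1, its obligate partner, was low and even across libraries (4.18 to 4.72). The ratio of Brca1 to Bard1 ran from 4.68 to 9.07.

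The MRN complex, which detects and trims broken ends, was represented by Rad50, Mre11a and Nbn. Rad50 stood at 42.3 and 52.5 in DMSO, 48.8 and 54.7 in CBR, and 47.8 and 29.3 in CBR+SAM. Mre11a, the nuclease of the complex, stood at 15.1 and 19.3 in DMSO, 22.2 and 18.2 in CBR, and 18.2 and 12.1 in CBR+SAM. For both genes the CBR+SAM libraries lay below the CBR libraries. For Mre11a the nearest values were almost equal, at 18.235 in CBR+SAM replicate 1 and 18.241 in CBR replicate 2. For Rad50, replicate 2 of CBR+SAM was far below the other 5 libraries. The change in CBR+SAM against CBR was -0.45 log2 for Rad50 (95% interval -1.03 to 0.13) and -0.41 log2 for Mre11a (95% interval -0.98 to 0.15). Without CBR+SAM replicate 2 these changes were -0.11 for Rad50 and -0.13 for Mre11a, and without CBR+SAM replicate 1 they were -0.80 and -0.69. With replicate 2 left out, the change of Rad50 in CBR+SAM against DMSO turned from -0.32 to 0.02. Nbn, which links the complex to ATM, ranged from 10.6 to 15.9. Rad50 was 2.20 to 3.00 times as high as Mre11a.

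Of the helicases, Blm, which dissolves crossed strands, stood at 37.9 and 33.9 in DMSO, 37.8 and 33.3 in CBR, and 36.0 and 49.9 in CBR+SAM, and Wrn ranged from 24.0 to 35.2. The DMSO and CBR values of Blm were nearly alike. Rad51c, a paralog of the recombinase, stood at 18.1 and 17.6 in DMSO, 13.9 and 16.3 in CBR, and 18.6 and 12.2 in CBR+SAM. Its CBR values lay below the DMSO values, with a change of -0.23 log2 (95% interval -0.74 to 0.29), and -0.12 without CBR replicate 1. The remaining paralogs were low, with Xrcc2 at 2.91 to 5.54 and Xrcc3 at 2.35 to 4.69.

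The end-joining genes were at moderate levels except for Prkdc, and the Ku subunits that cap broken ends were nearly equal. Xrcc6, which encodes Ku70, stood at 20.5 in both DMSO libraries, 17.2 in both CBR libraries, and 20.0 and 16.0 in CBR+SAM. The replicates of DMSO and of CBR were almost identical, and the change in CBR against DMSO was -0.24 log2 (95% interval -0.64 to 0.16, unadjusted p = 0.195). Limma estimates the spread over all 3 groups, so the wide CBR+SAM pair enters that interval. Xrcc5, which encodes Ku80, stood at 23.1 and 20.9 in DMSO, 21.1 and 16.4 in CBR, and 24.5 and 16.9 in CBR+SAM. Its groups overlapped, with replicate 2 the lower in each. The ratio of Xrcc5 to Xrcc6 ran from 0.956 to 1.23.

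Lig4, the ligase of end joining, stood at 8.27 and 9.27 in DMSO, 10.7 and 9.17 in CBR, and 10.5 and 11.4 in CBR+SAM. Its CBR+SAM values were above the DMSO values, with a change of 0.29 log2 (95% interval -0.13 to 0.70). Xrcc4, the partner that stabilises the ligase, stood at 37.7 and 31.6 in DMSO, 38.7 and 39.9 in CBR, and 36.4 and 38.2 in CBR+SAM. The CBR values of Xrcc4 were the highest by a small margin (0.18 log2 against DMSO, 95% interval -0.19 to 0.55). Xrcc4 was 3.36 to 4.56 times as high as Lig4.

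In the Fanconi anaemia pathway Fancd2, whose monoubiquitination marks a crosslink for repair, stood at 5.38 and 5.20 in DMSO, 4.995 and 5.50 in CBR, and 6.44 and 7.01 in CBR+SAM. Both CBR+SAM libraries were above the other 4. The change was 0.31 log2 against CBR (95% interval -0.11 to 0.72, unadjusted p = 0.122) and 0.30 log2 against DMSO (95% interval -0.12 to 0.71). Fancm, the translocase that finds the crosslink, stood at 15.5 and 12.5 in DMSO, 12.7 and 12.1 in CBR, and 12.9 and 13.9 in CBR+SAM. Fanca, a subunit of the core ubiquitin ligase, stood at 3.66 and 3.18 in DMSO, 4.71 and 3.36 in CBR, and 4.40 and 3.57 in CBR+SAM. Neither Fancm nor Fanca separated DMSO from either treatment.

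The 3 nucleotide excision genes had the lowest sums of the listed sets, at 9.18 to 13.0. This describes these 3 genes and not the whole pathway, whose further genes include higher ones. Xpa, which verifies the lesion, stood at 4.23 and 5.45 in DMSO, 4.90 and 5.31 in CBR, and 6.08 and 6.10 in CBR+SAM. Both CBR+SAM values of Xpa were above the other 4, and the change against DMSO was 0.29 log2 (95% interval -0.16 to 0.74). Xpc, which recognises distorted DNA, stood at 3.84 and 5.69 in DMSO, 3.85 and 4.25 in CBR, and 5.48 and 4.52 in CBR+SAM. Ercc1, a subunit of the nuclease that cuts beside the lesion, was close to the filter limit at 1.11 and 1.85 in DMSO, 1.43 and 1.11 in CBR, and 1.20 and 1.19 in CBR+SAM. The groups of Ercc1 overlapped in every comparison.

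**Figure D3:**
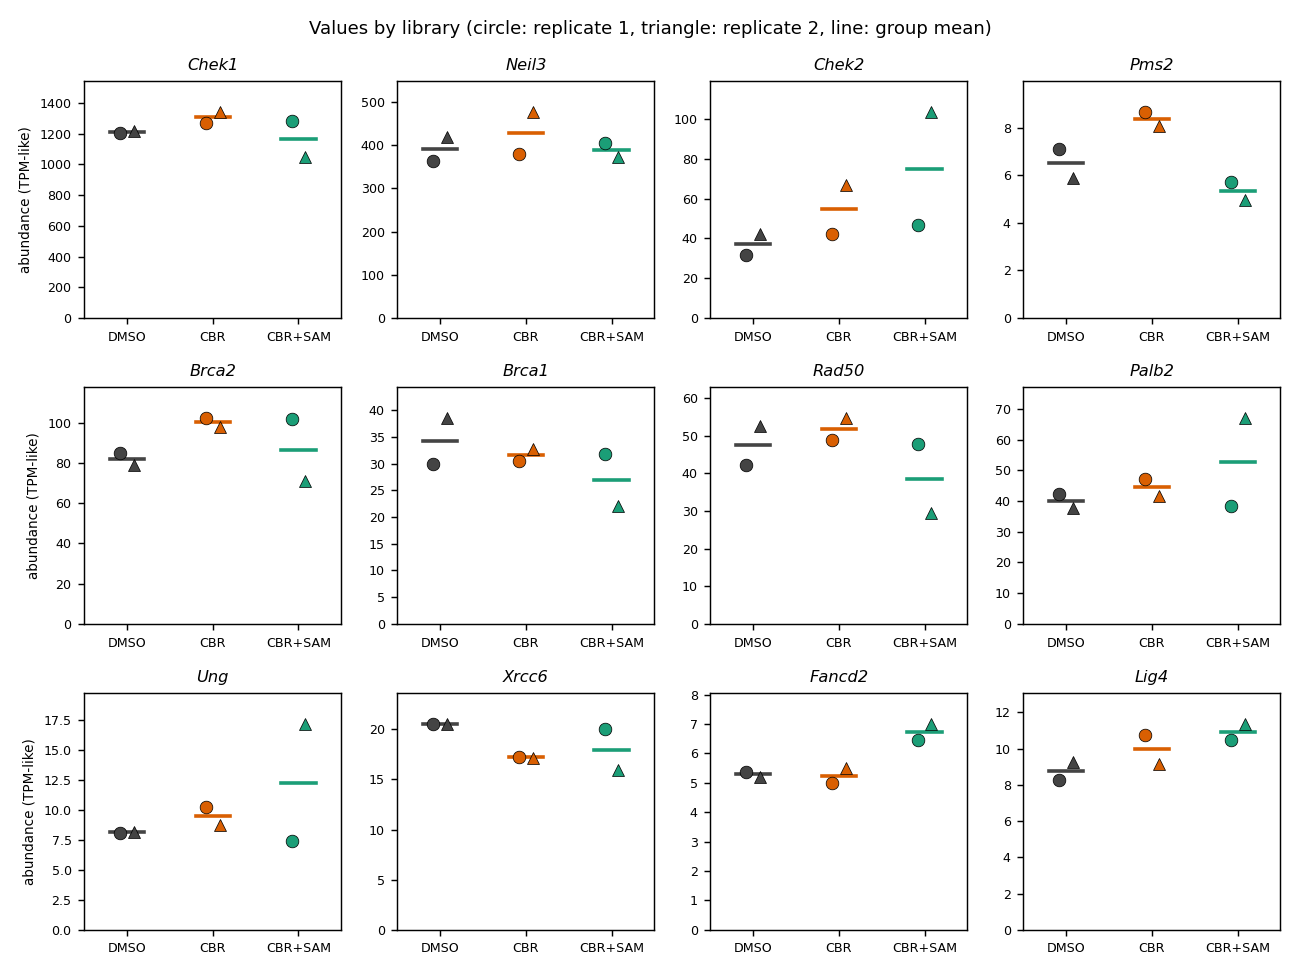
Deposited abundance of 12 of the genes in each library, with 1 panel per gene, an axis that starts at 0, circles for replicate 1, triangles for replicate 2 and a line for the group mean. In CBR+SAM the replicates lie far apart for Chek2 (46.5 and 104), Rad50 (47.8 and 29.3), Palb2 (38.5 and 67.1) and Ung (7.38 and 17.2).

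Groups that did not overlap were about as frequent among these genes as among all genes. The count was 15 of 45 in CBR against DMSO, where 33.0% of all genes tested did not overlap. It was 11 of 45 in CBR+SAM against CBR, against 27.5% of all genes, and 9 of 45 in CBR+SAM against DMSO, against 24.5%.

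The replicates differed most in CBR+SAM. CBR+SAM replicate 2 was the highest library for 13 and the lowest for 17 of the 45 genes, 66.7% in all, and the same held for 56.7% of all genes tested. Every other library was an extreme for 10 to 17 of the 45. The median absolute difference between replicates was 0.158 log2 in DMSO, 0.149 in CBR and 0.306 in CBR+SAM for these genes, and 0.171, 0.19 and 0.308 over all genes. Replicates differed by more than 0.5 log2 for 0, 4 and 15 of the 45 genes, beside 12.1%, 12.4% and 27.4% of all genes. Chek2, Ung and Atr were highest in CBR+SAM replicate 2 relative to replicate 1, and Rad50, Ogg1 and Xrcc2 were lowest. Replicate 2 was also the library with the low Serpine2, at 224.5 against 496 to 602 elsewhere, and the part of that difference in the spread of the repair genes was not tested.

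With CBR+SAM replicate 1 left out, so that replicate 2 stood alone for its group, 16 of the 45 genes had an unadjusted p under 0.05 against CBR and 10 against DMSO. This was so for 19.3% and 16.7% of all genes tested. The lone sample is then assumed to vary like the other groups. None of the 45 was called there, and the smallest limma adjusted p were 0.131 and 0.163. With CBR+SAM replicate 2 left out instead, the counts were 3 (Atr, Neil2 and Xrcc2) and 2 (Atr and Brca2), beside 3.85% and 3.27% of all genes tested.

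**Figure D4:**
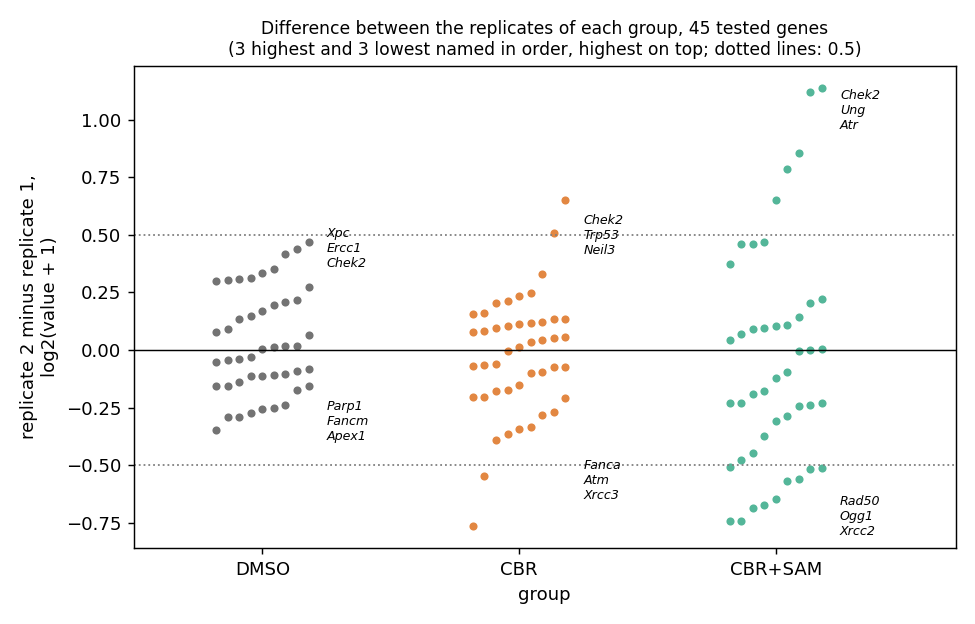
Difference between replicate 2 and replicate 1 of each group on the log2(value + 1) scale, with 1 point per tested gene and the 3 highest and 3 lowest genes named. The CBR+SAM points spread from -0.74 to 1.14, wider than DMSO (-0.35 to 0.47) and CBR (-0.76 to 0.65).

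Some of the values carry reads that could belong to a neighbouring gene, since the library kit marks no strand. Of the 47 genes, 10 share exon bases with another record that had a mean of at least 1. The largest overlaps were those of Apex1 with Pip4p1 on the opposite strand (877 bases, 61.7% of the exon bases of Apex1), Lig3 with Rffl (1826 bases, 25.1%) and Trp53bp1 with Tubgcp4 (2130 bases). A neighbour had the higher mean for 3 genes, whose levels are uncertain for that reason. Rffl had a mean of 15.8 beside 6.999 for Lig3, Ankrd49 had 148 beside 17.5 for Mre11a (154 shared bases, 2.6%), and Klc1 had 7.29 beside 3.74 for Xrcc3 (12 shared bases). Trp53 was the only one with a near-identical transcript elsewhere, the pseudogene Trp53-ps, whose mean was 0.0356.

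In the mm10 build, with coordinates from GENCODE M21, Chek1 lies on chromosome 9 from 36708482 to 36727065 on the minus strand and Chek2 on chromosome 5 from 110839979 to 110874145 on the plus strand. Pms2 lies on chromosome 5 from 143909964 to 143933968 on the plus strand, and Neil3 on chromosome 8 from 53586867 to 53639065 on the minus strand. All are protein-coding genes, and each value sums over the whole gene.

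The wider repair machinery was read from 141 further genes of the same pathways, with translesion synthesis and direct reversal added. Of these, 121 were tested and none was called in any comparison (limma, Benjamini-Hochberg). At an unadjusted p under 0.05 there were 2, 3 and 2 genes of the 121 in the 3 comparisons, beside 2.12%, 3.09% and 2.14% of all genes tested. The fitted change was above 0 for 63, 50 and 57 of the 121, against 48.3%, 52.4% and 49.0% of all genes, with medians of 0.01, -0.05 and -0.02 log2. The most abundant were Mdm4, an inhibitor of p53, with a mean of 3606, Rpa3, a subunit of the single-strand binding protein RPA, with 584, Atrip, the partner of ATR, with 452, and Ube2t, the ubiquitin-conjugating enzyme of the Fanconi anaemia pathway, with 406. Atrip was thus above Atr, the kinase it binds, in every library.

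The genes with an unadjusted p under 0.05 came from several pathways, and Mpg, a glycosylase of base excision for alkylated bases, was 0.59 log2 lower in CBR+SAM than in DMSO (unadjusted p = 0.0398) with no overlap. Eme2, a partner of the nuclease MUS81, stood at 2.4995 and 3.16 in DMSO, 1.97 and 2.32 in CBR, and 0.791 and 0.950 in CBR+SAM. The 3 groups did not overlap, and the change in CBR+SAM against DMSO was -1.03 log2 (95% interval -1.53 to -0.53, unadjusted p = 0.00177, limma adjusted p = 0.9997). Ube2t stood at 426 and 458 in DMSO, 342 and 350.0 in CBR, and 411 and 451 in CBR+SAM, lowest in both CBR libraries (-0.35 log2 against DMSO, unadjusted p = 0.0350). Paxip1, a checkpoint adaptor, stood at 11.6 and 12.7 in DMSO, 18.4 and 15.9 in CBR, and 13.0 and 15.1 in CBR+SAM, highest in both CBR libraries (0.47 log2 against DMSO, unadjusted p = 0.0305). Nhej1, a factor of end joining, was 0.50 log2 higher in CBR+SAM than in CBR (unadjusted p = 0.0177) with groups that did not overlap. Rad23b, a partner of XPC, was 0.69 log2 lower there (95% interval -1.28 to -0.11), with replicates at 48.6 and 27.9 in CBR+SAM.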

How the data were processed

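The 6 libraries came from wild-type 1-cell mouse embryos in 3 groups (DMSO, CBR-5884 alone, or with S-adenosylmethionine added) of 2 replicates, per the labels. cDNA came from the SMART-Seq v4 kit and libraries from Nextera XT, per the labels' protocols, with no strand marking or molecular identifiers described. The authors deposited 1 signal value per gene and library, an abundance that resembles TPM. The tools the authors used were kallisto, fastp and DESeq2, on the build mm10, per the submitters' processing notes, which give no versions or roles. Columns summed to 956209 to 1059424, so a further scaling, not given in the sources used here, had been applied. The depth per library is unknown.

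The members and lists were chosen with earlier results of these data known. Ensembl identifiers were matched to GENCODE M21 (35820 of 36065). All 6 libraries entered 1 fit in limma 3.58.1 (R 4.3.3) on log2(value + 1), with a mean-variance trend, 3 residual degrees of freedom and no replicate block, two-sided, with Benjamini-Hochberg adjustment over all 12249 genes tested. The test was checked on simulated data in which every group had the same spread. The wider spread of CBR+SAM was therefore not covered by that check. Shared transcripts were sought with blastn 2.17.0 (at least 200 bases and 95% identity). Genes given with every library's value were those with the smallest p in each direction of each comparison (3 each), the 3 most abundant of each pathway and a set of core factors; of the further lists, up to 3 with the smallest p and 2 with the highest mean could be named. Alternatives changed the filter, pseudocount, scaling, libraries fitted, block, weights and gene types.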

Additional observations from a re-analysis of the deposited data

How the results depend on the processing

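No gene of the 45 was called under any of the 15 alternatives of each comparison, and the smallest adjusted p of any of them was 0.131 (limma, CBR+SAM against CBR without CBR+SAM replicate 1). Of 263 recomputed changes of the 18 gene results with the smallest p, 262 kept their direction. The exception was Rad50 in CBR+SAM against DMSO, at -0.666 to 0.0199 with 1 library left out (0.0199 without CBR+SAM replicate 2). Over all genes tested, CBR against DMSO gave 1 call with only its 4 libraries fitted, and 0 to 2 with 1 library left out (2 without DMSO replicate 2). CBR+SAM against CBR gave 0 calls without a filter, with a mean of at least 10, with a pseudocount of 0.1 and with protein-coding genes alone, and 0 to 9 with 1 library left out (9 without CBR+SAM replicate 1). CBR+SAM against DMSO gave 0 under the same 4 settings and with only its 4 libraries, and 0 to 3 with 1 library left out (3 without DMSO replicate 2). The median change of the genes in CBR against DMSO was -0.0151 with each library rescaled to the same sum and 0.0204 to 0.0594 with 1 library left out. In CBR+SAM against CBR it was -0.0667 with a mean of at least 10, and -0.101 to 0.051 with 1 library left out. In CBR+SAM against DMSO it was -0.122 with each library rescaled to the same sum, and -0.103 to 0.0319 with 1 left out. That rescaling left 22, 18 and 14 of 45 changes above 0 in place of 26, 19 and 18. It also lowered the median change over all genes tested, to -0.0443, -0.0205 and -0.0765 in the 3 comparisons. The causes were not tested.

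The replicate numbers were not taken as pairs, since the labels give only the number. Replicate differences correlated across genes with 0.392 between DMSO and CBR, 0.218 between DMSO and CBR+SAM, and 0.0911 between CBR and CBR+SAM. With the replicate block the calls over all genes were 0, 1 and 1, as without it, and the unadjusted p of Chek2 was 0.038 in CBR against DMSO and 0.00377 in CBR+SAM against DMSO (0.905 log2, limma adjusted p 1.0).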

Other observations

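Of 23 target genes of p53, the transcription factor that Trp53 encodes, 12 were tested and none was called in any comparison (limma, Benjamini-Hochberg), and none had an unadjusted p under 0.05. Rrm2b, the ribonucleotide reductase subunit that p53 induces, was the most abundant and stood at 346 and 341 in DMSO, 394 and 375 in CBR, and 361 and 259 in CBR+SAM. Plk2, a kinase gene that p53 induces, stood at 1.70 and 1.95 in DMSO, 0.860 and 1.61 in CBR, and 2.21 and 2.17 in CBR+SAM, and its change in CBR+SAM against CBR was 0.53 log2 (unadjusted p = 0.0595).

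The differences between replicates of the 45 tested repair genes went the same way in all 3 groups for 16 of them, 35.6%, against 32.6% of all genes tested. Replicate 2 was the higher each time for Bard1, Chek2, Lig1, Nthl1, Trp53bp1, Xpa and Xrcc1, and the lower for Atm, Brca2, Fanca, Lig3, Msh3, Neil2, Ogg1, Pms2 and Xrcc5. For Chek2 the ratio of replicate 2 to replicate 1 was 1.34 in DMSO, 1.58 in CBR and 2.23 in CBR+SAM.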
